A study of Homo sapiens with 24 samples.

Results

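KLK2, KLK3, KLK4, TMPRSS2, FKBP5, SLC45A3 and PMEPA1 are 7 genes of the prostate whose transcription is raised by androgen. They were chosen by name with earlier results of these data known, and every array probe whose RefSeq accession belongs to 1 of them was taken. This gave 10 probes for 7 of the 41069 genes on the 24 h array, and 10 probes for 7 of the 47753 genes on the 48 h array. In these totals a probe without a RefSeq match counts as a gene under its array identifier. Those named through RefSeq were 20992 at 24 h and 22439 at 48 h, and every share of all genes takes in the unnamed ones too. The study silenced 2 long noncoding RNAs that it named TAPIR-1 and TAPIR-2, and asked what their loss does to the transcriptome of prostate cancer cells. All samples were LNCaP cells, a human prostate cancer line that responds to androgen, grown in serum-containing medium and electroporated with an siRNA duplex. The control group received a scrambled duplex (si-SCRL), 1 group received si-A1 against TAPIR-1, and another received si-A2 against TAPIR-2. RNA was taken 24 h or 48 h later, with 4 arrays for each siRNA and time point. The 48 h si-A2 array of replicate 2 was much dimmer than the rest and was left out by the study and here, so 12 arrays at 24 h and 11 at 48 h were compared. The model is 1 cell line under 1 duplex for each noncoding RNA, and no group had androgen added or withdrawn. In RNA of whole cultures, a smaller share of cells with a transcript and less transcript in each cell cannot be told apart.

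Androgens are steroid hormones that raise or lower transcription of genes with androgen response elements in their promoters or distant enhancers. FOXA1 and HOXB13 are transcription factors of prostate cells that bind many of the same enhancers. KLK2 and KLK3 are neighbouring genes for secreted serine proteases of the kallikrein family, and the KLK3 product is prostate-specific antigen. KLK4 encodes another prostate kallikrein, TMPRSS2 a serine protease anchored in the membrane, and SLC45A3 the membrane protein prostein. FKBP5 encodes FKBP51, an immunophilin that works as a co-chaperone of HSP90 and is also induced by glucocorticoids. PMEPA1 encodes a membrane protein that dampens TGF-beta signalling and is induced by both androgen and TGF-beta.

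In GRCh38.p14 the 3 kallikreins lie together on chromosome 19, KLK3 at 50854915 to 50860764, KLK2 at 50873439 to 50880567 and KLK4 at 50906351 to 50911395. The other members are dispersed. SLC45A3 is on chromosome 1 at 205657851 to 205680509, FKBP5 on chromosome 6 at 35573590 to 35728583, PMEPA1 on chromosome 20 at 57648396 to 57711472 and TMPRSS2 on chromosome 21 at 41464305 to 41508158. RefSeq promoter windows of 300 bases, 250 before the transcription start and 50 after it, were matched for 6 of the 7 genes. For KLK2, KLK3, FKBP5 and SLC45A3 1 window each is shown, because these 4 members had the largest differences from si-SCRL after si-A1 at 48 h. They are written 5′ to 3′ on the strand of the gene, and capitals mark matches to the androgen response element motifs described after them.
KLK2, chr19:50873189-50873488, plus strand: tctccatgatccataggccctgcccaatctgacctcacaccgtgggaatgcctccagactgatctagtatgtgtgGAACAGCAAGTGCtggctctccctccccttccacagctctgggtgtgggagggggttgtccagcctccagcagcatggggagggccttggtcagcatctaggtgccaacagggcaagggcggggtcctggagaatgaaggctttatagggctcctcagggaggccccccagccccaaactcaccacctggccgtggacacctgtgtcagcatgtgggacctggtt
KLK3, chr19:50854665-50854964, plus strand: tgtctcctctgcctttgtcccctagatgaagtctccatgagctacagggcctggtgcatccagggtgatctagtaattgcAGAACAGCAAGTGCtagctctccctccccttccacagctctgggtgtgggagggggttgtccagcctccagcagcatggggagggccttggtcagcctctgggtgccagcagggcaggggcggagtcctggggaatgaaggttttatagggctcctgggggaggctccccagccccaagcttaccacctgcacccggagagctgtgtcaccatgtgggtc
FKBP5, chr6:35728534-35728833, minus strand: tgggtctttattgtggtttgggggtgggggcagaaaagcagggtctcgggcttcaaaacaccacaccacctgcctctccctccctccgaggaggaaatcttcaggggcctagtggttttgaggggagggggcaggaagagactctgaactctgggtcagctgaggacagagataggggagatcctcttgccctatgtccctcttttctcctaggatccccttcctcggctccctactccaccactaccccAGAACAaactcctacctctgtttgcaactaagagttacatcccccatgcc
SLC45A3, chr1:205680460-205680759, minus strand: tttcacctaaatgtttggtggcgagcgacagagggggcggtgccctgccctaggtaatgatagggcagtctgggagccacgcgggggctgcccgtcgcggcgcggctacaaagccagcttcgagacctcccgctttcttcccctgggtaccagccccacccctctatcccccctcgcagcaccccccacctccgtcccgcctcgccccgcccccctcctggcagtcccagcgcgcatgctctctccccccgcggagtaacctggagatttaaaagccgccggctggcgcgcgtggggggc

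The search covered 3 patterns of the androgen response element on both strands. They were the half-site AGAACA, a 2-sided element (GNACA, any 3 bases, then TGTNC) and a relaxed form of it (GNACA, any 4 bases, then GTNC), whose matches can overlap a half-site. The half-site was present in 14.8% of 35116 RefSeq promoter windows of the same length, the 2-sided element in 0.39% and the relaxed form in 2.19%. KLK2 and KLK3 held the same relaxed match, GAACAGCAAGTGC, at -175 to -163 and at -169 to -157 from the start. In KLK3 it ran on from a half-site at -170 to -165. Aligned at an offset of 6 bases, the KLK2 and KLK3 windows were identical at 225 of 294 positions (76.5%), with a longest shared run of 80 bases, and the identical run around the match itself was 14 bases. Several members have more than 1 RefSeq window. The FKBP5 window shown held a half-site at bases 1 to 6 after the start. The other FKBP5 window, at 35688866 to 35689165, held none of the 3 patterns and is not printed. Which of these starts belongs to the transcript of the FKBP5 probe was not tested. Of 4 PMEPA1 windows, 1 held a half-site at bases 23 to 28, another held its reverse complement at -229 to -224, and the others held no match. None of the 3 patterns was in the windows of SLC45A3 or KLK4, and none of the 6 genes held the 2-sided element. These are matches of letters within short windows and say nothing about binding.

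Measurements were single-colour array intensities on a log2 scale, quantile normalized between the arrays of 1 time point, and a difference of 1 is a 2-fold difference. The median processed intensity ranged from 24.4 to 57.2 at 24 h and from 20.4 to 32.2 on the 48 h arrays used, and no spot was saturated. The 24 h samples were hybridised to version 2 of the array and the 48 h samples to version 3, so time and array version cannot be told apart, and levels are compared within a time point only. At each time point replicates 1 and 2 shared 1 slide and replicates 3 and 4 another, with all 3 siRNAs on both. Of the luminal epithelial markers fixed for the check, KRT8, KRT18 and FOLH1 were well above background on all 23 arrays. KRT15 and PTPRC, listed as basal and immune markers, were also above background on all 23, whereas TP63 was above it on 8 and COL1A1 on 3. No basal, stromal or immune marker was called in any comparison. No probe could be matched to TAPIR-1, so its silencing was not checked here. A TAPIR-2 probe at 24 h measured 5.04 ± 0.20 in si-SCRL, 4.64 ± 0.32 in si-A1 and 4.06 ± 0.74 in si-A2 (log2 intensity, SD, n = 4 each), a si-A2 difference of -0.98 that did not pass the test (limma adjusted p = 0.230). Only 2 of the 4 si-A2 arrays of 24 h had this probe clear of background, which limits the reduction that can be measured. At 48 h the same probe measured 4.64 ± 0.58 in si-SCRL and 4.68 ± 0.90 in si-A2, with no reduction to be seen. A second TAPIR-2 probe at 48 h was clear of background on no array, so it gives no difference here. By quantitative PCR, at a later time than these arrays, the paper reports knockdown of both RNAs in LNCaP cells.

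All 10 probes of the 7 genes passed the filter on low values, and 9 were well above background on all arrays. The second FKBP5 probe was well above background on 0 of 12 arrays at 24 h and 2 of 11 at 48 h, so it gives no difference here. KLK2 and PMEPA1 have 2 measurable probes each, and the brighter stands for the gene unless the second is named. A gene is said to be called, to rise or to fall where limma's moderated test, with slide as a covariate and Benjamini-Hochberg adjustment over all probes, gave adjusted p under 0.01 together with a log2 difference of 0.5 or more in size. Each siRNA is compared with the same si-SCRL arrays and then with the other siRNA, so the 3 comparisons of a time point share arrays and are not independent.

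At 24 h no member was called in any comparison. After si-A1 the most negative differences from si-SCRL were those of FKBP5 and SLC45A3, and the 3 kallikreins, TMPRSS2 and PMEPA1 had group means within 0.25 of si-SCRL. The FKBP5 probe read 7.70, 7.81, 8.87 and 7.83 in si-SCRL replicates 1 to 4, 6.84, 6.86, 7.20 and 6.57 in si-A1, and 7.46, 7.77, 7.82 and 7.40 in si-A2. All 4 si-A1 arrays lay below every si-SCRL and every si-A2 array, and si-SCRL replicate 3 stood apart on the high side. The si-A1 minus si-SCRL difference was -1.19 (SE 0.25, 2.28-fold lower, limma adjusted p = 0.0333). SLC45A3 read 10.51, 10.16, 10.99 and 10.04 in si-SCRL, 9.42, 9.56, 9.67 and 9.18 in si-A1, and 10.04, 10.41, 10.52 and 9.82 in si-A2. Again the si-A1 arrays were the lowest and did not overlap the others (5.1% of all genes lay wholly below si-SCRL after si-A1), with a difference of -0.97 (SE 0.24, 1.96-fold lower, limma adjusted p = 0.0712). Between si-A2 and si-A1 9.99% of all genes did not overlap at 24 h, in either direction. Across all genes tested at 24 h, 0.98% were called lower and 0.0846% higher after si-A1. The median difference was 0.05 over the members and 0.05 over all genes. At an unadjusted p below 0.05, 2 of the 7 members differed, FKBP5 and SLC45A3, where 12.5% of all genes did.

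The kallikreins did not differ beyond their spread at 24 h. KLK2 measured 10.84 ± 0.16 in si-SCRL, 10.86 ± 0.37 in si-A1 and 11.18 ± 0.18 in si-A2 (log2 intensity, SD, n = 4 each). KLK3 ranged from 10.41 to 11.42 in si-SCRL, from 10.70 to 11.37 in si-A1 and from 10.52 to 11.44 in si-A2. KLK4 ranged from 10.57 to 11.06, from 10.58 to 10.99 and from 10.82 to 11.11 in the same order. Every pairwise limma adjusted p for these 3 genes at 24 h was above the threshold, and each group's range overlapped the others. The brighter PMEPA1 probe measured 8.10 ± 0.21, 8.31 ± 0.25 and 8.25 ± 0.19. Its second probe had the opposite sign after si-A1, at 6.55 ± 0.65, 5.84 ± 0.59 and 6.39 ± 0.41, with a si-A1 difference of -0.71 (SE 0.32, limma adjusted p = 0.383) that was not called.

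TMPRSS2 was the member with the most negative difference from si-SCRL after si-A2 at 24 h. It read 10.32, 10.52, 11.14 and 10.88 in si-SCRL, 10.85, 10.98, 11.24 and 10.76 in si-A1, and 9.79, 10.10, 10.21 and 10.42 in si-A2. The si-A2 arrays overlapped si-SCRL at 1 array and lay wholly below si-A1, where 9.99% of all genes had these siRNAs apart in either direction. The difference was -0.58 from si-SCRL (SE 0.17, limma adjusted p = 0.141) and -0.83 from si-A1 (SE 0.17, 1.78-fold lower, limma adjusted p = 0.0390), neither past the threshold. With normexp background correction the second value became -0.79 with an adjusted p of 0.0046, and it was then called. Over all genes, si-A2 lowered 0.83% and raised 0.0792% against si-SCRL at 24 h, and the corresponding shares for si-A2 minus si-A1 were 0.109% and 0.235%. At an unadjusted p below 0.05, TMPRSS2 alone of the 7 differed between si-A2 and si-SCRL, where 11.2% of all genes did. TMPRSS2, FKBP5 and SLC45A3 differed by the same measure between si-A2 and si-A1, where 10.7% of all genes did. Member medians were 0.14 and 0.16 for these 2 comparisons, beside 0.05 and -0.01 over all genes.

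**Figure D1:**
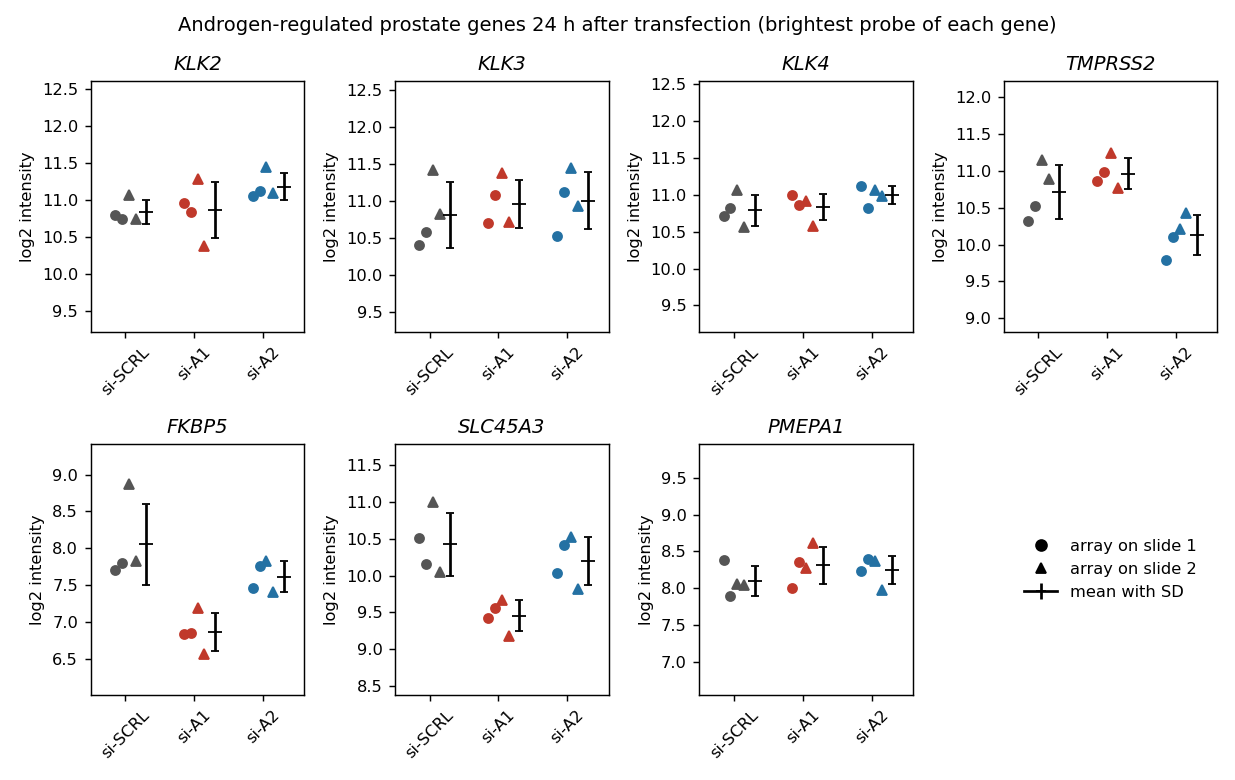
Log2 intensity of the 7 genes on each 24 h array, 1 panel for each gene, with circles for slide 1 arrays, triangles for slide 2 arrays and bars for each siRNA's mean and SD (n = 4 each). The si-A1 points of FKBP5 (6.57 to 7.20) and SLC45A3 (9.18 to 9.67) lie below all si-SCRL points, as those of 5.1% of all genes do, and these 2 groups overlap in the other 5 panels.

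At 48 h si-A1 lowered FKBP5, SLC45A3 and, by its brighter probe only, KLK2. These 3 of 7 members were called lower and 0 higher, where 3.68% of all 37683 genes tested were called lower and 2.2% higher. The members were chosen with earlier results of these data known, so the count describes them and does not test them as a set. The median difference was -0.87 over the 7 members and 0.06 over all genes. KLK3 was lower on average without passing the test, and KLK4, TMPRSS2 and PMEPA1 had means within 0.05 of si-SCRL.

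FKBP5 had the largest difference of the 7. Its probe read 7.69, 8.28, 8.32 and 8.23 in si-SCRL and 5.96, 6.11, 6.35 and 6.65 in si-A1 at 48 h. Every si-A1 array was at least 1 log2 unit below the lowest si-SCRL array. The difference was -1.86 (SE 0.20, 95% interval -2.30 to -1.42, 3.63-fold lower, limma adjusted p = 0.000449), and within the slides it was -1.95 and -1.77.

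SLC45A3 read 9.52, 10.05, 10.75 and 10.34 in si-SCRL and 8.67, 8.68, 8.96 and 9.12 in si-A1. The groups did not overlap, and the si-A1 arrays were the tighter set. The difference was -1.31 (SE 0.16, 95% interval -1.66 to -0.95, 2.47-fold lower, limma adjusted p = 0.000954), with -1.11 on slide 1 and -1.51 on slide 2.

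KLK2 read 11.65, 11.67, 12.92 and 12.33 in si-SCRL and 10.65, 10.72, 11.41 and 11.49 in si-A1. The si-A1 arrays all lay below the lowest si-SCRL array, although within each group the slide 2 arrays were brighter than the slide 1 arrays. The difference was -1.07 (SE 0.13, 95% interval -1.37 to -0.78, 2.10-fold lower, limma adjusted p = 0.000971), with -0.97 on slide 1 and -1.18 on slide 2. Without the slide term the KLK2 adjusted p was 0.0810 and that of SLC45A3 0.0185, and FKBP5 alone of the 3 stayed past the threshold (adjusted p = 0.0030). With the dim array put back no member was called, although FKBP5 was at -1.86, SLC45A3 at -1.34 and KLK2 at -1.05. With the replicate number as a block the 3 genes stayed called, and the genes called over the whole array went from 2216 to 1441.

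KLK3, the gene of prostate-specific antigen, depended more on the slide. It read 10.86, 10.72, 12.57 and 12.27 in si-SCRL, 10.43, 10.37, 10.96 and 11.19 in si-A1, and 10.83, 11.50 and 11.68 in si-A2 replicates 1, 3 and 4. The si-A1 and si-SCRL ranges overlapped because the slide 1 si-SCRL arrays were low. The si-A1 difference of -0.87 (SE 0.20, 1.82-fold lower, limma adjusted p = 0.0195) was not called, and it was -0.39 on slide 1 and -1.34 on slide 2. It was called at -0.83 with normexp background correction (adjusted p = 0.0048) and at -0.84 without background correction (adjusted p = 0.0029).

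The remaining kallikrein of the members, KLK4, read 8.98, 9.13, 9.94 and 9.60 in si-SCRL, 9.12, 9.21, 9.58 and 9.61 in si-A1, and 9.62, 9.86 and 10.12 in si-A2. Its si-A1 difference of -0.03 left the 2 groups interleaved. TMPRSS2 read 9.32, 9.94, 11.24 and 10.76 in si-SCRL, 10.05, 9.80, 10.65 and 10.93 in si-A1, and 9.20, 10.01 and 9.86 in si-A2. Its si-SCRL range held all 4 si-A1 arrays, with a difference of 0.04. PMEPA1 measured 7.94 ± 0.25 in si-SCRL, 7.96 ± 0.15 in si-A1 and 8.02 ± 0.28 in si-A2 (log2 intensity, SD, n = 4, 4 and 3), and its second probe 5.92 ± 0.79, 5.41 ± 0.39 and 6.18 ± 0.70, with no call for either.

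**Figure D2:**
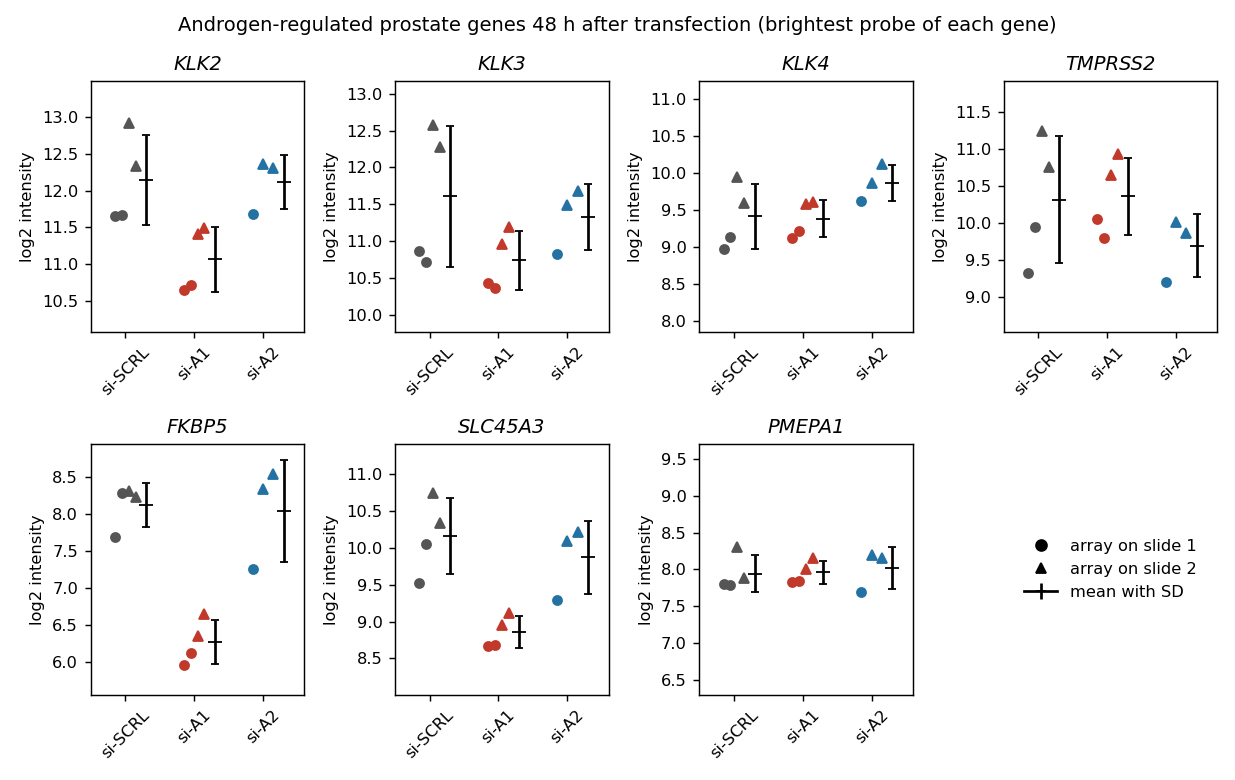
Log2 intensity of the 7 genes on each 48 h array, 1 panel for each gene, with circles for slide 1 arrays, triangles for slide 2 arrays and bars for the mean and SD of si-SCRL (n = 4), si-A1 (n = 4) and si-A2 (n = 3). The si-A1 points lie below all si-SCRL points for FKBP5, SLC45A3 and the brighter KLK2 probe, as they do for 8.14% of all genes, and these 2 groups overlap in the other 4 panels.

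Slide 2 arrays were brighter than slide 1 arrays for every member at 48 h, by 1.05 for KLK3, 1.02 for TMPRSS2, 0.81 for KLK2, 0.64 for SLC45A3, 0.58 for FKBP5, 0.52 for KLK4 and 0.32 for PMEPA1. At 24 h the same difference ran from -0.03 to 0.38. Slide and replicate number move together, so scanning, hybridisation and culture cannot be told apart as the source, and all 3 siRNAs stood on both slides.

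The 2 KLK2 probes disagreed at 48 h. The array's annotation lists the brighter probe under NM_005551 and the second under NM_001002231, another transcript of the gene. Probe sequences were not used here, so whether the probes tell these transcripts apart was not tested. The second probe read 9.04, 8.75, 9.91 and 9.65 in si-SCRL, 9.24, 9.37, 10.10 and 10.15 in si-A1, and 8.81, 10.01 and 10.33 in si-A2. It was thus no lower after si-A1, with a difference of 0.38 (SE 0.14, limma adjusted p = 0.107) where the brighter probe gave -1.07. On each array the second probe minus the brighter one was -2.81 ± 0.19 in si-SCRL and -1.35 ± 0.04 in si-A1 (log2, SD, n = 4 each), and the groups did not overlap. The shift of 1.45 was as large within the slides, at 1.38 and 1.53, and had an exact two-sided permutation p of 0.0286, the smallest that 4 against 4 arrays can give (adjusted p = 0.229 over 8 tests of this kind). At 48 h si-A2 shifted it by 0.41 (exact permutation p = 0.143, n = 3), and at 24 h the shifts were -0.04 for si-A1 and 0.06 for si-A2. This test was added after the values were seen. Where the median over a gene's probes was used in place of the brightest probe, the KLK2 difference after si-A1 at 48 h was -0.35 (adjusted p = 0.0670) and KLK2 was not called. That median gave -1.5 for FKBP5 (adjusted p = 0.0121), since it takes in the FKBP5 probe that was mostly not above background. SLC45A3, with 1 probe, remained called.

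**Figure D3:**
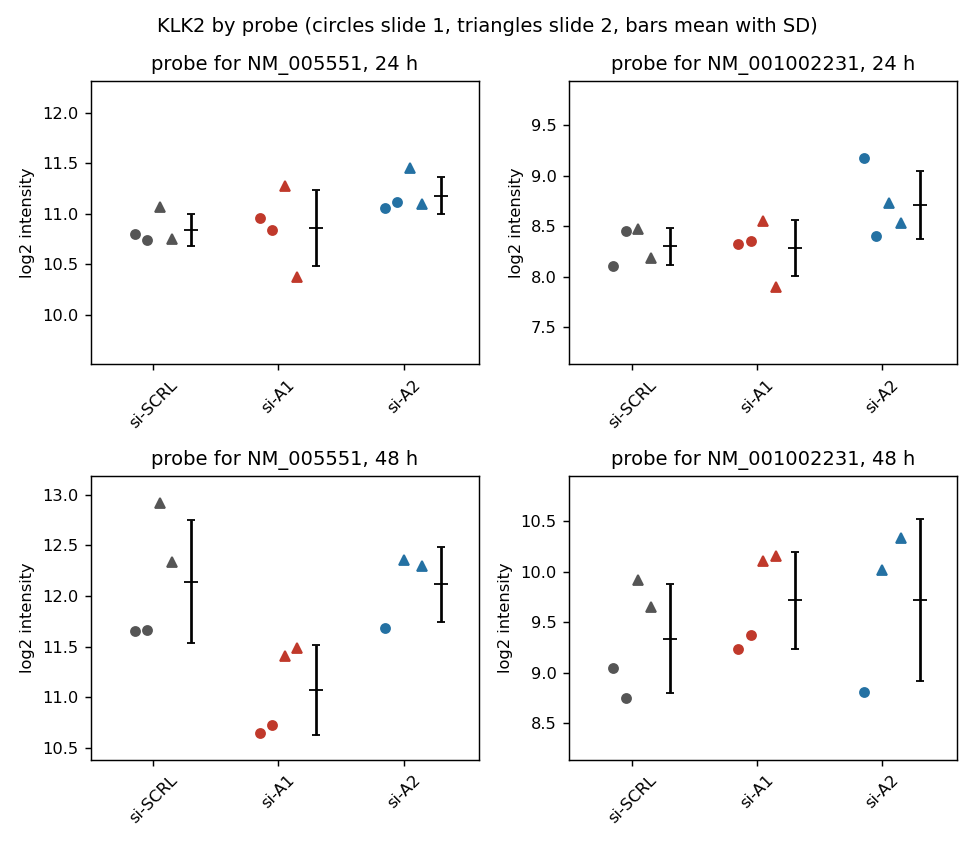
Log2 intensity of the 2 KLK2 probes on each array at 24 h and 48 h by siRNA, with circles for slide 1, triangles for slide 2 and bars for the mean and SD. At 48 h the si-A1 arrays are low for the brighter probe (10.65 to 11.49) and not for the second (9.24 to 10.15).

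After si-A2 at 48 h no member was called, where 0.374% of all genes were called lower and 0.0637% higher. Those 165 calls became 0 with the replicate number as a block. The member median was -0.18, beside 0.01 over all genes. TMPRSS2 had the most negative difference, -0.80 (SE 0.21, 95% interval -1.28 to -0.32, 1.74-fold lower, limma adjusted p = 0.0922), and its si-A2 range overlapped si-SCRL. Within the slides it was -0.43 and -1.07. FKBP5 read 7.25, 8.34 and 8.55 in si-A2, a difference of -0.18 (limma adjusted p = 0.719) that was -0.73 on slide 1, where si-A2 had 1 array, and 0.17 on slide 2. SLC45A3 read 9.30, 10.10 and 10.21 (difference -0.40, limma adjusted p = 0.272), and KLK2 read 11.69, 12.36 and 12.30 (difference -0.16, limma adjusted p = 0.607). KLK3 was at -0.45 and KLK4 at 0.37, with limma adjusted p of 0.321 and 0.188. TMPRSS2, SLC45A3 and KLK4 were the 3 members with an unadjusted p below 0.05, as 17.2% of all genes had.

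Set directly against each other at 48 h, the 2 siRNAs differed for FKBP5 and, by its brighter probe only, KLK2. Both were higher in si-A2 than in si-A1, which makes 2 of 7 members called higher where 0.931% of all genes were called higher and 0.446% lower. FKBP5 differed by 1.68 (SE 0.21, 95% interval 1.20 to 2.16, 3.20-fold, limma adjusted p = 0.00416) and KLK2 by 0.91 (SE 0.14, 95% interval 0.59 to 1.23, 1.88-fold, limma adjusted p = 0.00907). SLC45A3 also stood at 0.91 (SE 0.17, limma adjusted p = 0.0204), with no overlap and no call, and TMPRSS2 had the opposite sign at -0.84 (SE 0.21, limma adjusted p = 0.0569). The 2 siRNAs did not overlap for 4 of the 7 members, FKBP5, KLK2, SLC45A3 and KLK4. Over all genes 13.9% were apart in this way, in either direction. KLK3 was at 0.42, KLK4 at 0.40 and PMEPA1 at 0.00, and the second KLK2 probe was at -0.16 (limma adjusted p = 0.652). These calls were less stable than those of si-A1 against si-SCRL. With the replicate number as a block FKBP5 stayed called at 1.78 (adjusted p = 0.0074) and KLK2, at 0.91, was not (adjusted p = 0.0285), and calls over all genes went from 519 to 208. Leaving out any si-A1 array, or si-A2 replicate 3 or 4, left no member called, with FKBP5 between 1.52 and 1.73. KLK2 also lost its call without si-A2 replicate 1 and without si-SCRL replicate 1, 2 or 4, with adjusted p up to 0.0700.

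**Figure D4:**
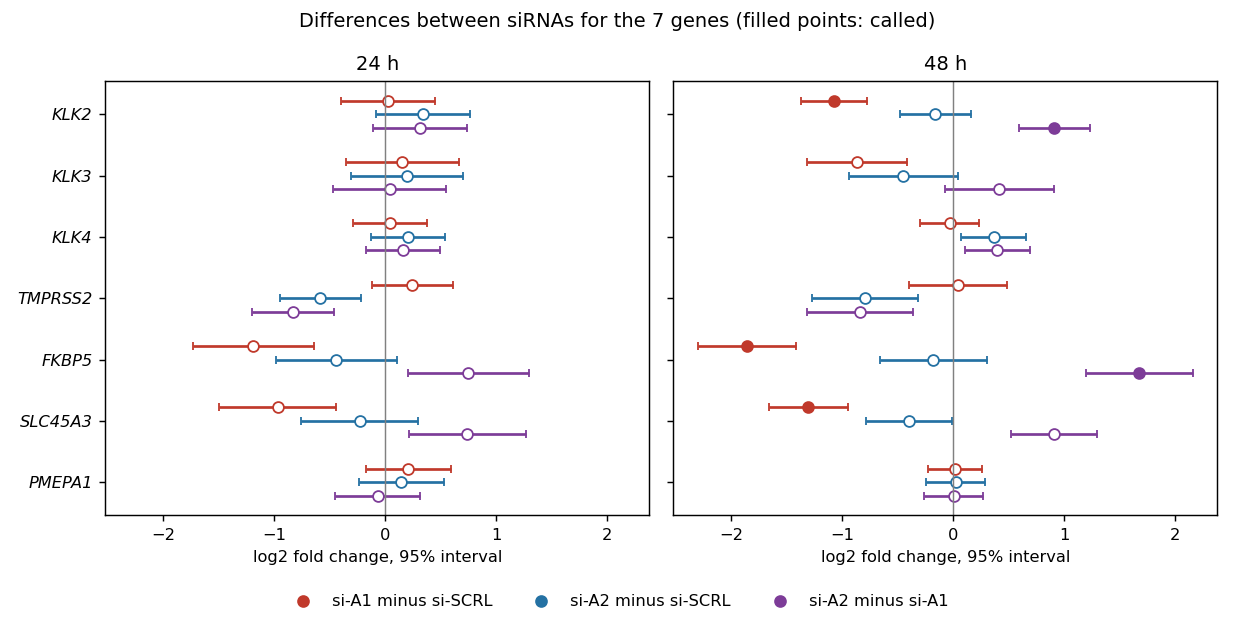
Log2 differences between siRNAs for the 7 genes at 24 h and 48 h, with points for the estimates, lines for 95% intervals and filled points for called differences. At 48 h the filled points are FKBP5, SLC45A3 and KLK2 for si-A1 minus si-SCRL and FKBP5 and KLK2 for si-A2 minus si-A1, with KLK2 by its brighter probe.

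The change of an effect between 24 h and 48 h was tested over the 30241 genes measurable on both array versions. No member passed this test for either siRNA, where 0.162% of genes did for si-A1 and 0.0364% for si-A2, and array version is part of any such change. After si-A1 the 48 h effect of KLK2 was lower than its 24 h effect by 0.98 (difference -0.98, SE 0.24, limma adjusted p = 0.0673), that of KLK3 by 0.92 (difference -0.92, adjusted p = 0.189) and that of FKBP5 by 0.70 (difference -0.70, adjusted p = 0.360). SLC45A3 had much the same effect at both times, with a difference of -0.25, and PMEPA1, KLK4 and TMPRSS2 had differences of -0.16, -0.07 and -0.19. KLK2 was the only 1 of the 7 called without 24 h si-A1 replicate 4 (-1.21, adjusted p = 0.0067). For si-A2 the differences ran from -0.59 for KLK3 to 0.27 for FKBP5. At an unadjusted p below 0.05, KLK2, KLK3 and FKBP5 differed for si-A1, where 12.9% of genes did, and none for si-A2, where 7.27% did.

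As a description over arrays that share siRNA, slide and normalization, FKBP5 and SLC45A3 varied together, with r of 0.94 at 24 h (n = 12) and 0.95 at 48 h (n = 11). KLK2 and KLK3 correlated at 0.65 and 0.91. TMPRSS2 had r of -0.07 and 0.04 with FKBP5, and PMEPA1 had r of -0.37 and 0.33 with FKBP5. With siRNA and slide taken out by a linear fit, FKBP5 and SLC45A3 had r of 0.89 and 0.64. KLK2 and KLK3 then had 0.73 and 0.61. On the same footing FKBP5 had r of 0.67 and 0.02 with TMPRSS2, and -0.10 and 0.41 with PMEPA1. Compared were 19475 genes named through RefSeq with a value on all 12 arrays of 24 h. Those with the highest r to FKBP5 over these arrays were FBXO21 (0.98), CENPN (0.97), ATP6V1D (0.96), ACSL3 (0.96) and TSEN15 (0.96). On the 11 arrays of 48 h, which did not choose them, their r with FKBP5 was 0.80, 0.81, 0.87, 0.98 and 0.82. The 5 most like KLK3 at 24 h were MRPS33 (0.90), ELOVL7 (0.88), POLI (0.87), ZNF548 (0.87) and COL4A5 (0.87). Their r at 48 h was 0.05, 0.78, 0.44, -0.58 and 0.03, so ELOVL7 alone of these stayed close to KLK3.

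Of FOXA1, HOXB13, NCOA4 and FKBP4, none was called against si-SCRL at 48 h. FOXA1 was at -0.24 and -0.42 at 48 h, with limma adjusted p of 0.158 and 0.0967. HOXB13 was at -0.21 after si-A1 and at -0.58 after si-A2, with limma adjusted p of 0.197 and 0.0260, and the si-A2 value was called with normexp background correction (-0.51, adjusted p = 0.0038). NCOA4, a nuclear coactivator, measured 10.17 ± 0.09 in si-SCRL, 10.17 ± 0.02 in si-A1 and 10.20 ± 0.04 in si-A2 at 48 h (log2 intensity, SD), and FKBP4, the co-chaperone related to FKBP5, 12.74 ± 0.05, 12.93 ± 0.22 and 12.66 ± 0.63.

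Within a list of 21 genes of androgen signalling and hormone supply, si-A1 lowered 2 and raised 0 at 48 h, where 3.68% of all genes were called lower and 2.2% higher. The list median was -0.12 and that of all genes 0.06. SRD5A1 was 1 of the 2. It encodes a steroid 5-alpha-reductase that makes dihydrotestosterone (6.64 ± 0.31 in si-SCRL, 5.43 ± 0.11 in si-A1, difference -1.21, limma adjusted p = 0.0013). No gene of this list was called after si-A2 at 48 h or in any 24 h comparison. At an unadjusted p below 0.05 the counts at 48 h were 4 of 21 after si-A1 (28.2% of all genes) and 4 after si-A2 (17.2%). At 24 h they were 4 after si-A1 (12.5%), 3 after si-A2 (11.2%) and 2 in si-A2 minus si-A1 (10.7%).

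A wider list held 95 other genes described as androgen-induced, of which 89 were tested at 48 h. This list too was chosen with earlier results of these data known, so its counts are a description. After si-A1, 16 of the 89 were called lower and 2 higher (3.68% and 2.2% of all genes), and the list median was -0.26 beside 0.06. ACSL3, a long-chain acyl-CoA synthetase of lipid metabolism, was lower by 1.74 (difference -1.74, 7.48 ± 0.53 in si-SCRL against 5.73 ± 0.38 in si-A1). Of genes of the cell cycle, CENPN of the kinetochore was at -1.72 and CCND1, cyclin D1, at -1.57. SMS, spermine synthase, fell from 11.05 ± 0.26 to 9.40 ± 0.15 (-1.65), and the kinases STK39 and RPS6KA3 were at -1.45 and -1.21. LMAN1, a cargo receptor of the secretory pathway, was at -1.27, and SPDEF, an ETS factor of luminal epithelium, at -1.01. The 2 that rose were SEC24D of vesicle coats (0.84) and CDC14B, a phosphatase (0.67). The 18 calls became 14 with the replicate number as a block and 0 with all 12 arrays. Without each array in turn they were 10 to 14, the lowest being 10 without si-A1 replicate 1 and 11 without si-A1 replicate 4.

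The same list gave 4 called lower and 0 higher after si-A2 at 48 h, with a median of -0.12 beside 0.01, where 0.374% of all genes were called lower. Among the 4 were FADS1, a fatty acid desaturase (-1.35), and SPDEF (-0.84). With the replicate number as a block none of the 4 was called, and no gene of the whole array was, and without each array in turn the list had 0 or 1 call. In si-A2 minus si-A1 at 48 h, 5 of the list were called higher and 0 lower (0.931% and 0.446% of all genes): ACSL3 (1.67), SMS (1.5), LMAN1 (1.35), STK39 (1.30) and ELOVL5, a fatty acid elongase (0.89). ACSL3 measured 7.53 ± 0.61 and SMS 10.89 ± 0.25 in si-A2 (log2 intensity, SD, n = 3), close to their si-SCRL levels. These 5 calls became 0 with the 2 groups alone or with all 12 arrays and 14 without background correction. They were 3 without si-A1 replicate 1 or 2, 2 without si-A1 replicate 3, 0 without si-A2 replicate 1, 1 without si-A2 replicate 4 and 8 without si-SCRL replicate 3. At 24 h, 93 of the 95 were tested. After si-A1, CCND1 (-1.84) and SMS (-1.32) fell, where 0.98% of all genes were called lower. After si-A2, CCND1 (-1.22), SPCS3 of the signal peptidase (-1.06) and TMEM50A (-0.94) fell (0.83% of all genes), and in si-A2 minus si-A1 SMS was higher (1.31) and SPCS3 (-1.23) and TMEM50A (-1.17) were lower (0.235% and 0.109% of all genes). The 3 calls after si-A2 became 0 with the 2 groups alone or the interquartile range filter and 1 without si-A2 replicate 1, 3 or 4 or si-SCRL replicate 2. The 3 calls in si-A2 minus si-A1 became 0 with the interquartile range filter and 1 without si-A1 replicate 1, 2 or 3 or si-A2 replicate 1, 3 or 4.

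**Figure D5:**
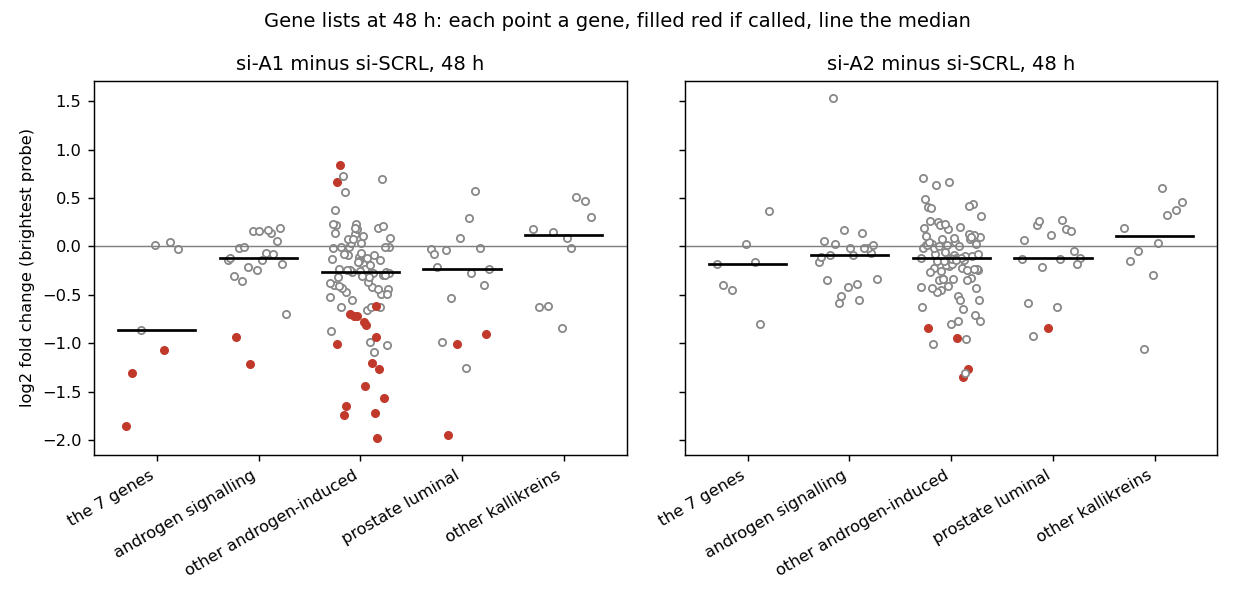
Log2 differences at 48 h for each tested gene of 5 lists (the 7 genes, androgen signalling, other androgen-induced genes, luminal genes and other kallikreins), with points for genes, filled where called, and lines for list medians, for si-A1 and si-A2 against si-SCRL. After si-A1, 16 of 89 other androgen-induced genes are called lower and 2 higher, and no other kallikrein is called.

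Of 17 luminal prostate genes, 3 were called lower and 0 higher after si-A1 at 48 h (3.68% and 2.2% of all genes), with a median of -0.23 beside 0.06. TRPM8, a cold-sensing channel of prostate epithelium, was at -1.95 (limma adjusted p = 0.0033) with 2 of 4 si-A1 arrays well above background, TSPAN1, a tetraspanin, at -0.91 (limma adjusted p = 0.0013), and SPDEF was the other. After si-A2 at 48 h SPDEF was the only 1 called (0.374% of all genes were called lower). TRPM8 was higher in si-A2 than in si-A1 by 2.21 (limma adjusted p = 0.0069, where 0.931% of all genes were called higher). SPDEF is also in the list of 95 androgen-induced genes, so its calls are counted in both lists. At 24 h MSMB, a secreted prostate protein, was called lower after si-A2 (0.83% of all genes were). None of the 4 si-A2 arrays measured it well above background, so it was at least 1.81-fold lower. The limma test used the values as measured, 4.71 in si-SCRL and 3.51 in si-A2 (adjusted p = 0.00612), and the bound itself was not tested.

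The lists for the other inputs of these genes showed no call against si-SCRL at either time. They were 12 other kallikreins (10 tested, median 0.12 after si-A1 at 48 h), 8 targets shared with glucocorticoids, as FKBP5 is (8 tested, median 0.06), and 10 TGF-beta targets, the other input of PMEPA1 (9 tested, median 0.06). In the glucocorticoid list NR3C1, the receptor, averaged 1.93 in si-SCRL at 48 h. The negative-control thresholds of those arrays were 1.80 to 3.48. With the receptor this near background, the lack of a call does not test that input. At an unadjusted p below 0.05, 4, 0 and 3 genes of these lists differed after si-A1 at 48 h, where 28.2% of all genes did, and 1, 2 and 3 after si-A2, where 17.2% did. The 3 TGF-beta targets after si-A2 were ID3 (1.14, limma adjusted p = 0.0161), ID1 (0.97, limma adjusted p = 0.0304) and ID2 (0.59, limma adjusted p = 0.190), named after their values were seen and not called. Of 7 androgen-repressed genes, 3 were tested at 48 h and none was called against si-SCRL. ACKR3, a chemokine receptor, read 5.30 ± 0.23 in si-SCRL, 6.94 ± 0.08 in si-A1 and 4.26 ± 1.05 in si-A2 at 48 h, and it was lower in si-A2 than in si-A1 by the direct test (-2.62, limma adjusted p = 0.0067, 2 of 3 si-A2 arrays well above background).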

How the data were processed

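LNCaP RNA from 24 samples was hybridised to Agilent SurePrint G3 arrays, and 23 arrays were used. The members and gene lists were chosen with earlier results of these data known. Per the file headers, the authors deposited scanner output of Agilent Feature Extraction 11.5.1.1, which gives a background-corrected intensity for each spot, and a value table on a log2 scale. The submitters' notes name R 3.4.3 and limma 3.34.8. Here the processed intensities were put on a log2 scale and quantile normalized within each time point, flagged spots were dropped and spots of a probe averaged. Probes were named through RefSeq accessions (29033 of 50599 probes at 24 h, 31104 of 58201 at 48 h), and the others were counted as genes under their array identifiers. A probe was kept when 3 or more arrays had it over the mean plus 3 SD of 308 negative controls, which left 44849 and 45173 probes. limma 3.58.1 in R 4.3.3 was fitted per probe with siRNA and slide over all groups of a time point, and a gene was counted by its brightest probe. The genes named are the members, FOXA1, HOXB13, NCOA4 and FKBP4, called genes of the lists (at most 12 of a list in a comparison, besides CDC14B, named so that both genes that rose are given), and the 5 genes most like KLK3 and FKBP5. Some genes of the lists are not reported here. CD3E, KRT15, PTPRC and similar markers served as a check of cell type. The procedure was tested on simulated data. The number of arrays limits the precision, and p-values measure the spread between the arrays of a group.

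Same-numbered 48 h samples deviated together (r from 0.179 to 0.354 for each pair). They also shared a slide, which was not taken out of these r values. Each slide held 2 replicate numbers. The closest match in the other group had the same number for each 48 h pair compared, except si-SCRL replicate 3, which was closest to si-A2 replicate 4. For si-A2 replicate 1, the only si-A2 array used on its slide, the slide alone could give that match. Whether same-numbered samples form pairs was not tested further. The main fit used slide alone, and the replicate number as a block is given as an alternative. At 24 h same-numbered samples did not deviate together (r from -0.147 to 0.159). Alternatives covered background correction, scaling, the authors' value table, filters, thresholds, the slide term, the replicate block, the probe of a gene, the groups in the fit, the dim array and each replicate in turn. The difference between 2 probes of a gene was added after seeing the data.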

Additional observations from a re-analysis of the deposited data

Results flagged for a closer look

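Of 50 groups of 4 arrays tested for an array far from the rest, 3 had one, and chance gives about 1 in 20. In the 24 h si-SCRL group FKBP5 read 8.87 in replicate 3, where the nearest array read 7.83 (gap over range 0.889). In the 24 h si-A2 group KLK2 read 11.45 in replicate 3, where the nearest read 11.12 (0.844). In the 48 h si-SCRL group FKBP5 read 7.69 in replicate 1, where the nearest read 8.23 (0.864), and this array lies on the side of the si-A1 values.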

How the results depend on the processing

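Members called after si-A1 at 48 h stayed at 3 without each replicate in turn. FKBP5 ran from -1.93 to -1.37 over 24 alternatives and was called in 22, SLC45A3 from -1.43 to -1.21 and in 22, and KLK2 from -1.16 to -0.35 and in 21. The count was 1 without the slide term, 1 with the median over the probes of a gene and 0 with all 12 arrays of 48 h. The members called in si-A2 minus si-A1 at 48 h, 2 as reported, were 1 with 75th percentile scaling, the authors' value table, the replicate block, the interquartile range filter, no background filter or an absolute log2 threshold of 1. They were 0 without the slide term, with the 2 groups alone, with the median over probes or with all 12 arrays, and 0 to 2 without each replicate. At 24 h the count for si-A2 minus si-A1 was 1 with normexp, without background correction or at an adjusted p below 0.05, and for si-A1 it was 1 at that threshold. The change of the si-A1 effect with time called 0 to 1 member without each replicate. The cause of these changes was not tested, except that 2 groups alone leave fewer arrays in the fit. Genes called in all went from 390 to between 141 and 785 (24 h si-A1), 333 to 154 and 631 (24 h si-A2), 126 to 23 and 461 (24 h si-A2 minus si-A1), 2216 to 23 and 4286 (48 h si-A1), 165 to 0 and 943 (48 h si-A2), 519 to 0 and 1598 (48 h si-A2 minus si-A1), 49 to 0 and 166, and 11 to 0 and 14 (changes with time of si-A1 and si-A2). The lowest came from the 2 groups alone, all 12 arrays, the replicate block or all 24 arrays, the highest from an adjusted p below 0.05, normexp or, for the 14, the replicate block. Without each replicate the same 8 counts ran over 205 to 334, 215 to 326, 27 to 265, 1104 to 2285, 0 to 66, 35 to 465, 8 to 75 and 3 to 25. At 24 h the numbers do not pair the samples, and the replicate block gave 254 genes for si-A1.

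Of the called differences 1 turned its sign, ELOVL5 in si-A2 minus si-A1 at 48 h, at -0.29 with all 12 arrays. The other sign changes were of differences that had not been called, here against si-SCRL unless si-A2 minus si-A1 is named. With 75th percentile scaling they were the second KLK2 probe (24 h si-A1, 0.010), FKBP4 (24 h si-A2, 0.098, and 48 h si-A2, 0.036) and NCOA4 (24 h si-A2, 0.010, and 48 h si-A1, 0.044). With all 12 arrays NCOA4 was -0.24 after si-A2 and -0.24 in si-A2 minus si-A1, the second PMEPA1 probe -0.53 and -0.035 likewise, and in si-A2 minus si-A1 KLK3 was -0.24 and the second KLK2 probe 1.16. With all 24 arrays the change of the si-A2 effect with time was -0.54 for FKBP5 and 0.22 for PMEPA1. With the median over probes FKBP4 was 0.11, 0.068 and -0.037 and PMEPA1 -0.25, -0.0073 and 0.24 in the 24 h comparisons (si-A1, si-A2, si-A2 minus si-A1), and at 48 h FKBP4 was -0.14 and PMEPA1 -0.25 after si-A1 and KLK2 0.028 after si-A2. KLK2 at 24 h after si-A1 was -0.045 with normexp and -0.046 without background correction, and its second probe 0.011 and 0.0097. Without the slide term the second KLK2 probe was 0.0034 in si-A2 minus si-A1 at 48 h, and the time change of the si-A2 effect on TMPRSS2 was 0.018.

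Without each replicate in turn the sign also changed for differences near 0. At 24 h the ranges after si-A1 were -0.11 to 0.23 for KLK2, -0.13 to 0.11 for its second probe and -0.032 to 0.16 for KLK4. After si-A2 they were -0.15 to 0.13 for FKBP4, -0.024 to 0.12 for HOXB13 and -0.31 to 0.10 for the second PMEPA1 probe, and in si-A2 minus si-A1 -0.13 to 0.15 for KLK3 and -0.18 to 0.047 for PMEPA1. At 48 h after si-A1 they were -0.14 to 0.20 for TMPRSS2, -0.049 to 0.037 for NCOA4, -0.069 to 0.10 for PMEPA1 and -0.10 to 0.071 for KLK4. At 48 h after si-A2 they were -0.018 to 0.057 for NCOA4, -0.10 to 0.25 for the second PMEPA1 probe, -0.33 to 0.12 for FKBP5, -0.075 to 0.11 for PMEPA1 and -0.38 to 0.25 for FKBP4. In si-A2 minus si-A1 they were -0.31 to 0.030 for the second KLK2 probe, -0.047 to 0.083 for PMEPA1 and -0.58 to 0.048 for FKBP4. The change with time ran from -0.20 to 0.023 for KLK4 after si-A1, and from -0.35 to 0.033 for SLC45A3 and -0.30 to 0.031 for TMPRSS2 after si-A2. The number of arrays, 3 or 4 in a group, limits what small differences can be seen.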
